A study of Mus musculus with 24 samples.

Results

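The 10 genes described here encode neural splicing and RNA-binding regulators: Ptbp1, Ptbp2, Srrm4, Nova1, Rbfox1, Rbfox2, Rbfox3, Msi1, Msi2 and Elavl3. They were picked by symbol and are 10 of the 46603 annotated genes among the 126602 features counted. All 10 passed the filter on low counts (a mean over the MROs of 10 or more after size factor scaling), as did 16253 annotated genes. Each library held ribosome-depleted total RNA of a single whole mouse retinal organoid (MRO), a layered retinal tissue that forms in culture from pluripotent stem cells. There were 24 MROs, 6 each at day 20 (D20), D22, D25 and D30 of differentiation. All were of control genotype, grown from the wild-type mouse embryonic stem cell line E14Tg2a, with water as the only solvent added. Per the study's methods, the trisection protocol that made them also includes an earlier exposure to EC23, a synthetic retinoid, which all 4 groups share. All MROs came from 1 independent experiment with 1 cell line, so the p-values below measure the spread between organoids of that experiment. D25 replicate 1 and D30 replicate 6 stood apart from the other MROs of their timepoints in several members, and the results that rest on them are given with and without them. The comparisons address how the RNA of these regulators changed from the end of retinal cell birth into early maturation.

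Splicing regulators bind short RNA motifs in and around exons and decide whether an exon is kept or skipped. In the developing brain, the polypyrimidine tract-binding protein Ptbp1 is known from progenitors and represses neural exons, while its neural relative Ptbp2 takes over in young neurons and declines as they mature. Srrm4 (nSR100) promotes neural microexons, Nova1 and the Rbfox proteins control exons of synaptic and cytoskeletal genes, the Musashi proteins Msi1 and Msi2 bind mRNAs in stem cells and in photoreceptors, and Elavl3 (HuC) stabilizes neuronal mRNAs. In the mature retina, rods carry their own splicing program, to which the Musashi proteins contribute.

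From D20 to D30, the RNA of Rbfox1, Nova1 and Msi2 rose, and that of Ptbp1, Ptbp2 and Msi1 fell, which is 6 of the 10 regulators past an adjusted p of 0.01 by edgeR's quasi-likelihood test with Benjamini-Hochberg adjustment over all 46949 features tested. Across all annotated genes, 25.1% were called higher and 16.7% lower in this comparison, against which the 3 of 10 in each direction are to be read. In whole organoids, fewer cells of a type and less RNA per cell cannot be told apart. In the joint test of all 4 timepoints 7 of 10 were called, the 7th being Srrm4, against 43.9% of annotated genes. Rbfox2, Rbfox3 and Elavl3 were not called in any comparison.

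The consecutive steps called fewer members. D22 against D20 called 1 member (Srrm4, higher) against a background of 2.56% higher and 0.763% lower. D25 against D22 called 1 member (Rbfox1, higher) against 7.33% higher and 2.92% lower. In D30 against D25, 2 members were called, Srrm4 and Msi1, both lower, against 4.55% higher and 2.83% lower. Over the wider spans, D25 against D20 called 5 members, with Msi2, Srrm4 and Rbfox1 higher and Ptbp1 and Ptbp2 lower, against 14.8% higher and 10.4% lower. D30 against D22 called 6 members, with Msi2, Nova1 and Rbfox1 higher and Msi1, Ptbp2 and Srrm4 lower, against 24% higher and 11.5% lower. These comparisons share organoids, so their counts are not independent of each other. With the libraries scaled on annotated genes alone, the share of higher genes among all annotated calls moved from 71.5% to 51.3% in D25 against D22, from 61.6% to 50% in D30 against D25 and from 67.5% to 51.7% in D30 against D22. In D30 against D22 that scaling lowered the median log2 fold change of annotated genes by 0.14, from 0.14 to -0.0040. The median log2 fold change of the 10 members from D20 to D30 was -0.10, beside 0.10 for all annotated genes tested.

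**Figure D1:**
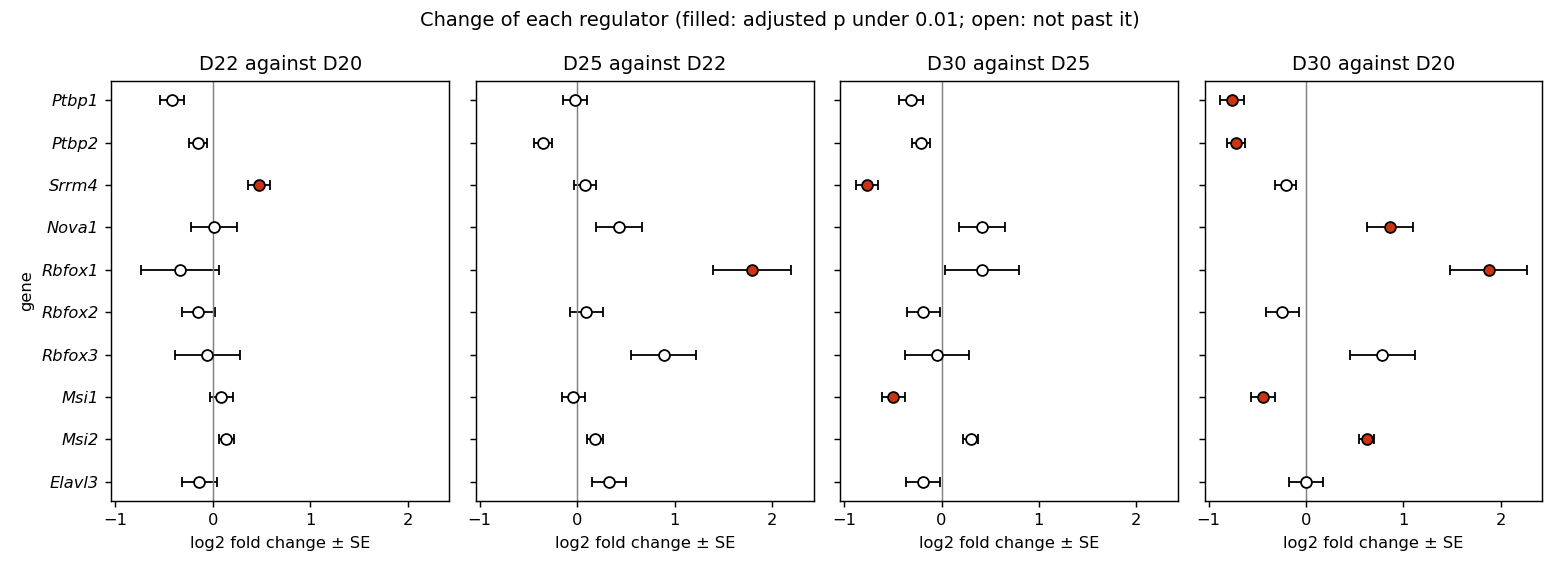
Log2 fold change of each regulator (x axis, with its standard error) in the 3 consecutive steps and in D30 against D20, 1 row a gene; filled points passed an adjusted p of 0.01 and open points did not. The largest changes are those of Rbfox1, 1.80 in D25 against D22 and 1.88 in D30 against D20, and Srrm4 is the gene with a filled point to the right in the first step and to the left in the third.

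Whether a step differed from the step before it was tested as a difference of log2 fold changes. No member passed 0.01 in edgeR's quasi-likelihood test of the second step against the first or of the third against the second, where 0.0246% and 0.0923% of annotated genes did. In the same tests 2 and 3 members had an unadjusted p under 0.05. The share of annotated genes at that threshold was not computed, so these counts cannot be read as an excess. The smallest adjusted p was that of Srrm4 for the third step against the second, at 0.0695, with a difference of -0.84 ± 0.19 (SE) on the log2 scale. A step that was called is therefore not shown to differ from the neighbouring step that was not.

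Gene positions below are on GRCm38 as GENCODE vM21 gives them. Levels of different genes are given as normalized CPM (counts scaled to 1 common library total with TMM factors) per kb of annotated exon, as mean ± SD of 6 MROs. At D20 Ptbp2 stood highest at 42.6 ± 2.21 CPM per kb, followed by Msi1 at 30.9 ± 3.01 and Msi2 at 29.8 ± 3.99. Rbfox2 (16.9 ± 2.01) and Elavl3 (15.7 ± 3.35) came next, then Ptbp1 (9.70 ± 1.56) and Srrm4 (8.70 ± 0.678), and Rbfox1, Rbfox3 and Nova1 were lowest at 2.26 ± 1.01, 1.91 ± 0.471 and 1.49 ± 0.626. Of the 9 pairs of neighbours in that order, 4 did not overlap between organoids, which set apart Ptbp2, the Msi pair, Rbfox2 with Elavl3, Ptbp1 with Srrm4, and the 3 lowest genes.

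By D30 the order had another head. Msi2 stood at 45.9 ± 2.62 CPM per kb, and Ptbp2 and Msi1 followed at 25.9 ± 4.69 and 22.7 ± 5.03. Msi2 over Ptbp2 was the 1 neighbour pair of 9 without overlap between MROs, and the other 8 pairs overlapped. Rbfox1, at 8.33 ± 3.76 CPM per kb, was now in the 6th place, above Srrm4 (7.52 ± 1.09) and Ptbp1 (5.74 ± 0.356), and Nova1 was again the lowest at 2.71 ± 1.04.

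**Figure D2:**
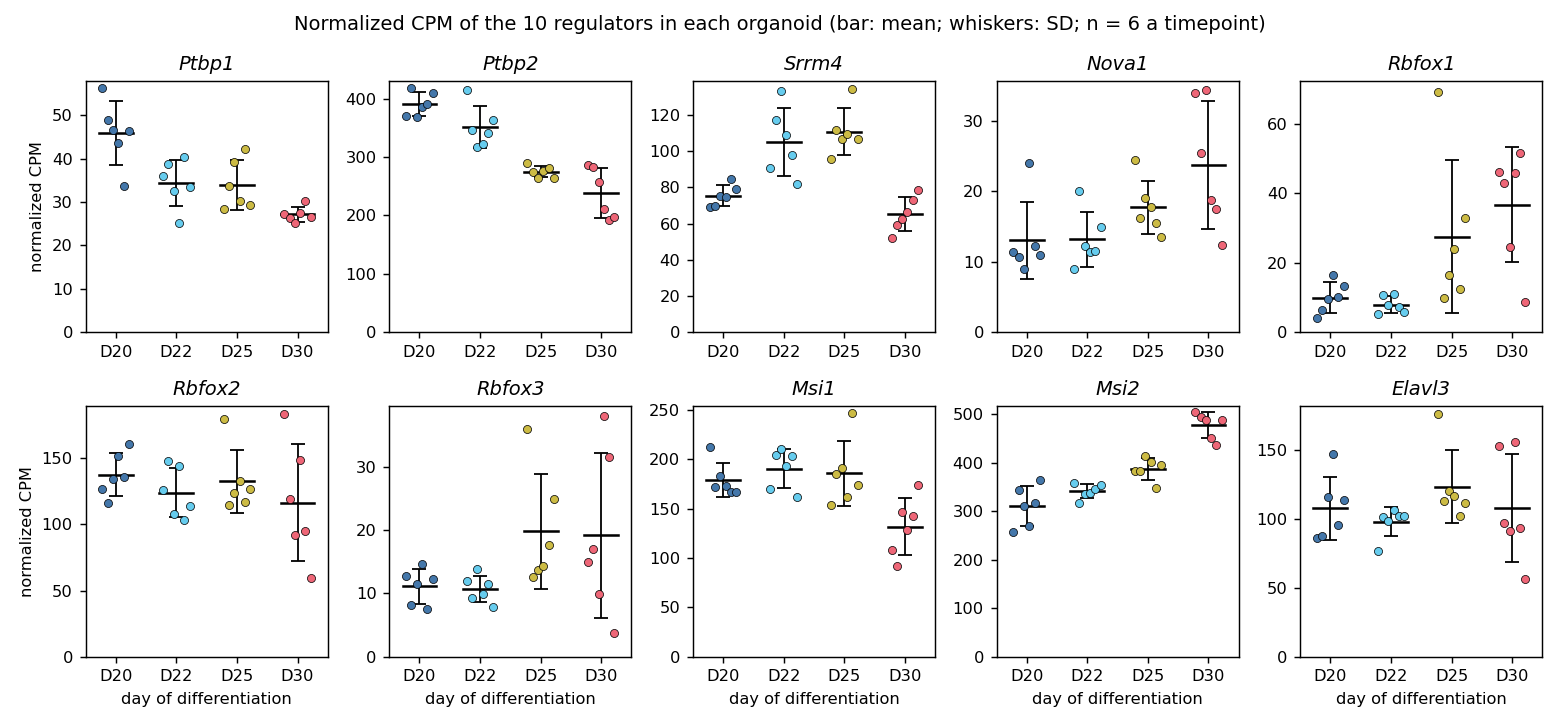
Normalized CPM (y axis, from 0) of the 10 regulators in each of the 24 organoids by day of differentiation (x axis); points are organoids, bars means and whiskers the SD of 6. Msi2 at D30 lies above every earlier organoid, Srrm4 is highest at D22 and D25, and 1 point at D25 stands above the rest in Nova1, Rbfox1, Rbfox2, Rbfox3 and Elavl3.

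Ptbp1 (ENSMUSG00000006498, chr10:79854427-79864771, plus strand), the repressor of neural exons, had a lowest, median and highest value of 33.7, 46.6 and 56.4 normalized CPM at D20 and of 25.2, 34.7 and 40.3 at D22. At D25 these were 28.3, 32.0 and 42.3, and at D30 25.3, 26.8 and 30.2. The MROs at D30 lay below all of those at D20, and neighbouring timepoints overlapped. Ptbp1 fell by 0.76 ± 0.13 (SE) on the log2 scale from D20 to D30 (1.69-fold, adjusted p = 1.40e-05). The first step gave -0.42 ± 0.12 (adjusted p = 0.0462), and the later steps gave -0.02 and -0.32, none of which was called. D30 against D22 gave -0.34 ± 0.13 (adjusted p = 0.0377). It passed with annotated genes only (-0.48, 0.00157) and in none of the 24 fits that left out an organoid. The fall from D20 to D25, -0.44 ± 0.12 (adjusted p = 0.00899), was lost in 14 of the 24 fits that left out an organoid and with DESeq2's size factors, either other filter, the replicate block or the compared timepoints alone, at -0.46 to -0.39. Exons of Ptbp1 share 295, 251 and 437 bases with E130317F20Rik, Plppr3 and Gm17134 on the opposite strand. The sources do not state whether counting used the strand, so how reads over these shared bases were counted is not known.

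Ptbp2 (ENSMUSG00000028134, chr3:119718742-119784466, minus strand), the neural relative, fell as well. Its lowest, median and highest values were 369, 388 and 419 normalized CPM at D20, and 317, 344 and 415 at D22. They were 263, 276 and 289 at D25, and 192, 234 and 286 at D30. All MROs of D25 and of D30 lay below all of D20 and D22. Ptbp2 fell by 0.72 ± 0.09 from D20 to D30 (1.64-fold, adjusted p = 2.33e-07), by 0.51 ± 0.09 from D20 to D25 (9.89e-05) and by 0.56 ± 0.09 from D22 to D30 (1.69e-05). The step from D22 to D25 gave -0.35 ± 0.09 and missed the threshold at an adjusted p of 0.0104. It passed with the compared timepoints alone (0.00411), with annotated genes only (-0.45, 0.00144) and in 5 of the 24 fits that left out an organoid.

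The ratio of Ptbp2 to Ptbp1 within an MRO does not depend on the scaling between libraries. Its geometric mean was 8.58 and 10.3 at D20 and D22, and 8.21 and 8.63 at D25 and D30. The mean log2 ratio was 3.10 ± 0.27 (SD) at D20 and 3.11 ± 0.32 at D30, with overlapping MROs. The difference of 0.0078 between D20 and D30 was less than the spread between organoids (two-sided exact permutation test, p = 0.952, n = 6 and 6). No timepoint was called in this ratio and the largest difference, -0.32 from D22 to D25, had an adjusted p of 0.127 in the exact permutation test.

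Ptbp1 is known to repress exon 10 of Ptbp2, whose skipping shifts the reading frame and sends the transcript to nonsense-mediated decay. The exon is shown because it is the site through which the pair is linked, and because counts per gene do not measure it. It lies in the Ptbp2 gene at chr3:119724612-119724645 (GRCm38, minus strand), an internal exon of 34 bases that is exon 10 of 2 transcripts in GENCODE vM21. Of 6 annotated transcripts that span it, 3 include and 3 skip it, and 2 of the latter are annotated as nonsense-mediated decay targets. In lower case throughout, 5′ to 3′ on the gene's strand:
Ptbp2 exon 10: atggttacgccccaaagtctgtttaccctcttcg

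The promoter windows of the regulators that moved in opposite directions are shown next, since a reader may want to set them side by side: Ptbp1 and Ptbp2, which fell, and Msi2 and Rbfox1, which rose. Each holds 250 bases before and 50 after the start of a RefSeq transcript on GRCm38.p6, at chr10:79854182-79854481 (plus strand) for Ptbp1, chr3:119783339-119783638 (minus) for Ptbp2, chr11:88718228-88718527 (minus) for the first of 3 Msi2 starts and chr16:5884543-5884842 (plus) for the first of 2 Rbfox1 starts. Capitals mark GC boxes, the letters GGGCGG or on the other strand CCGCCC, which may abut:
Ptbp1: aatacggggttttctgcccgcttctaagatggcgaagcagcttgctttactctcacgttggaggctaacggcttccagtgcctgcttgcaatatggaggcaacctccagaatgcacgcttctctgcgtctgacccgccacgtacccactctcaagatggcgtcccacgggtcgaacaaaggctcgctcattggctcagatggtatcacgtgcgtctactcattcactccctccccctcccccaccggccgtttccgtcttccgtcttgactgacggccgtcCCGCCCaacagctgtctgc
Ptbp2: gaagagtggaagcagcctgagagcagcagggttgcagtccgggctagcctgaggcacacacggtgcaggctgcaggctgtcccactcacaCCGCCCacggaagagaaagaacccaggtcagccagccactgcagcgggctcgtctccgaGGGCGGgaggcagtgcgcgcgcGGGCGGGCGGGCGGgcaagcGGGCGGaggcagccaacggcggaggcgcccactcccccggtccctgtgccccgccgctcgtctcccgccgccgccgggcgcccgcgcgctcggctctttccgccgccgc
Msi2: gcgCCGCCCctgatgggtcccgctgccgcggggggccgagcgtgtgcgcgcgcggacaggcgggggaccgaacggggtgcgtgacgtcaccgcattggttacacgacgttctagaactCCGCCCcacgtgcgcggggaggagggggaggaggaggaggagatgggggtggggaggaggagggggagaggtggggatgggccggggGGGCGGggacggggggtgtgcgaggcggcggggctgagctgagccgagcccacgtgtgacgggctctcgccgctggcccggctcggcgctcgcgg
Rbfox1: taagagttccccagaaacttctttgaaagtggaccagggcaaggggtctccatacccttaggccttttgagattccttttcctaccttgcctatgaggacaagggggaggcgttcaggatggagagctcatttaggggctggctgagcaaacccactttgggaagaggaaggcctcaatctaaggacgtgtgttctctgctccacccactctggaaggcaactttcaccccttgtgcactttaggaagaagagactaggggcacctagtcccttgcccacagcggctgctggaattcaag

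RefSeq promoter windows were found for 8 of the 10 members, and Msi1 and Rbfox2 are named only. GC boxes numbered 6 in the Ptbp2 window, 3 in that of Msi2, 1 in that of Ptbp1 and 0 in that of Rbfox1, and of all 32851 promoter windows of this length 35.7% hold at least 1. The GC content was 74.7% for Ptbp2, 76.3% for Msi2, 58.3% for Ptbp1 and 52.7% for Rbfox1, beside a median of 52.7% over all windows. The TATA box (TATAAA, either strand) was present in the Elavl3 window alone among the 8, and in 13.6% of all windows. The letters TAATCC, bound by the photoreceptor homeobox factors Crx and Otx2, were in none of the 8 and in 7.06% of all.

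**Figure D3:**
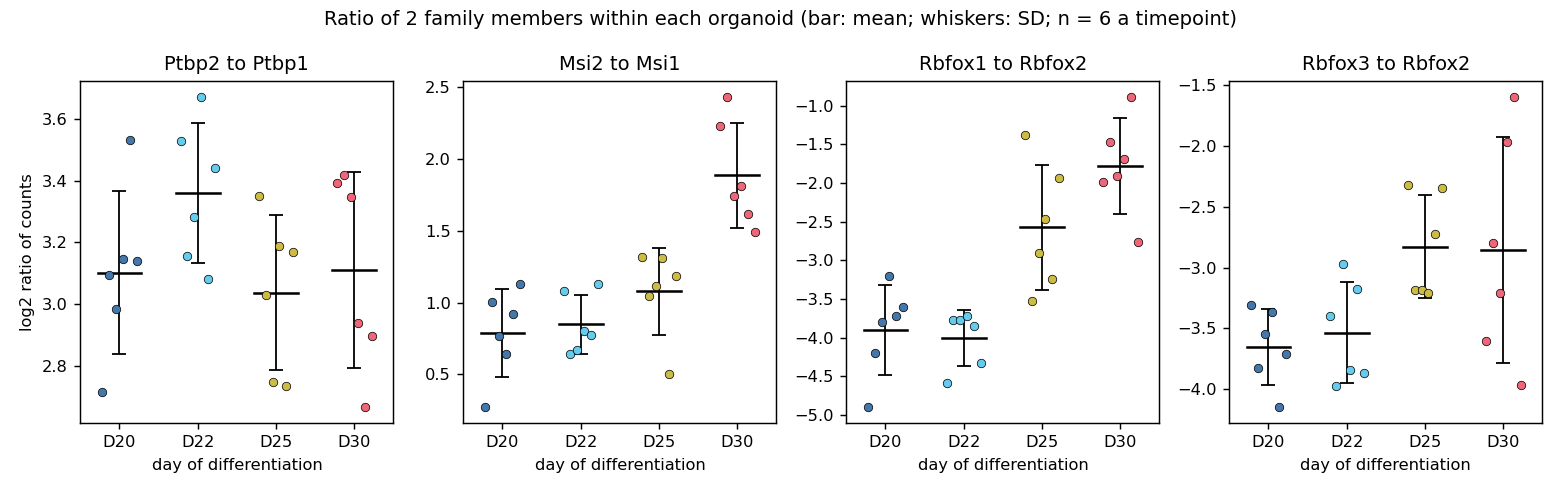
Log2 ratio of the counts of 2 family members within each organoid (y axis) by day (x axis); points are organoids, bars means and whiskers the SD of 6. The ratio of Msi2 to Msi1 lies higher in every organoid at D30 than in any at D25, and the ratios of Ptbp2 to Ptbp1 at D20 and D30 overlap.

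Srrm4 (ENSMUSG00000063919, chr5:116439275-116591817, minus strand), which promotes the inclusion of neural microexons, was highest at the middle timepoints. Its lowest, median and highest values were 69.1, 75.1 and 84.6 normalized CPM at D20, and 82.0, 103 and 133 at D22. They were 95.6, 108 and 135 at D25, and 52.0, 64.5 and 78.4 at D30. All MROs of D25 lay above all of D20, and all MROs of D30 below all of D22 and D25. Srrm4 fell by 0.76 ± 0.11 from D25 to D30 (1.70-fold, adjusted p = 2.62e-05), a call kept in all 24 fits that left out an organoid. Its rise from D20 to D25, 0.55 ± 0.11 (1.47-fold, adjusted p = 0.000347), was also kept in all 24. The rise in the first step, 0.48 ± 0.11 (adjusted p = 0.00931), was lost in 17 of the 24 such fits and with DESeq2's size factors or edgeR's filterByExpr, at an adjusted p of up to 0.0436 and values of 0.40 to 0.50. D30 against D20 gave -0.21 ± 0.11 (adjusted p = 0.143). The antisense gene Srrm4os shares 68 exonic bases with Srrm4.

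Nova1 (ENSMUSG00000021047, chr12:46694517-46818929, minus strand), a neuron-specific splicing factor first known as an autoimmune antigen, was the lowest member per kb at each timepoint. Its lowest, median and highest values were 9.01, 11.1 and 24.01 normalized CPM at D20, and 8.95, 11.9 and 20.1 at D22. They were 13.5, 17.0 and 24.4 at D25, and 12.4, 22.1 and 34.3 at D30. All timepoints overlapped. Nova1 rose by 0.86 ± 0.24 from D20 to D30 (1.82-fold, adjusted p = 0.00474) and by 0.85 ± 0.24 from D22 to D30 (0.00659), and no consecutive step was called. The call from D20 to D30 was lost without D20 replicate 1, 2, 3 or 6 or D30 replicate 1 or 3, at 0.73 to 0.83, and with the compared timepoints alone (0.87, adjusted p = 0.0142). The call from D22 to D30 was lost in 7 of the 24 fits, with the replicate block and with annotated genes only (0.70, adjusted p = 0.0175).

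The Rbfox proteins bind the same RNA motif and are expressed at different stages: Rbfox2 in many cell types, Rbfox1 and Rbfox3 (the antigen NeuN) in neurons. Rbfox1 (ENSMUSG00000008658, chr16:5885355-7411526, plus strand) had a lowest, median and highest value of 4.20, 9.90 and 16.4 normalized CPM at D20, and of 5.21, 7.51 and 10.9 at D22. At D25 these were 9.83, 20.3 and 69.0, and at D30 8.70, 44.4 and 51.6. At D30, 5 of 6 MROs lay above all MROs of D20 and D22, and the 6th, at 8.70, lay within their range. Rbfox1 rose by 1.80 ± 0.40 from D22 to D25 (3.47-fold, adjusted p = 0.00303) and by 1.88 ± 0.40 from D20 to D30 (3.67-fold, 0.000324). The step from D22 to D25 was lost without D22 replicate 1 or 6 (1.70 and 1.72), without D25 replicate 1 (1.27, adjusted p = 0.0196) and with the replicate block (1.69, 0.0105), while D30 against D20 kept its call in every fit that left out an organoid. D25 against D20, at 1.46 ± 0.39 (adjusted p = 0.00602), was lost without D25 replicate 1 (0.94, 0.0516), without D20 replicate 1, 2, 3 or 5 or D25 replicate 6 (1.29 to 1.46) and with the replicate block (1.36, 0.0183).

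Rbfox2 (ENSMUSG00000033565, chr15:77078990-77307004, minus strand) had a lowest, median and highest value of 116, 135 and 160.3 normalized CPM at D20, and of 104, 119.9 and 148 at D22. At D25 these were 114, 125 and 179, and at D30 59.3, 107 and 183. The 4 timepoints overlapped, the spread was widest at D30, and the joint test gave an adjusted p of 0.632. D30 against D20 gave -0.24 ± 0.17 (adjusted p = 0.279).

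Rbfox3 (ENSMUSG00000025576, chr11:118489762-118911597, minus strand) had a lowest, median and highest value of 7.61, 11.8 and 14.6 normalized CPM at D20, and of 7.78, 10.7 and 13.8 at D22. At D25 these were 12.6, 15.99 and 36.0, and at D30 3.77, 16.04 and 37.9. The MROs of D30 reached below and above those of every other timepoint. D30 against D20 gave 0.78 ± 0.33 (adjusted p = 0.0643) and the joint test an adjusted p of 0.0381, neither of which was called. Without D30 replicate 6, D30 against D20 passed at 1.00 (adjusted p = 0.00507) and D30 against D22 at 1.06 (0.00390).

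The balance within the family was read from the ratio in each MRO. The log2 ratio of Rbfox1 to Rbfox2 was -3.91 ± 0.58 (SD) and -4.00 ± 0.36 at D20 and D22, then -2.58 ± 0.81 at D25 and -1.78 ± 0.62 at D30. It was higher at D25 than at D22 by 1.43 and higher at D30 than at D20 by 2.12, in each case without overlap between MROs (two-sided exact permutation test, n = 6 and 6, p = 0.00216, the smallest that 6 against 6 can give, adjusted over 16 ratio tests 0.00866). Both calls held in all 12 recomputations that left out 1 of the MROs compared, at 1.19 to 1.62 and at 1.92 to 2.32. From D25 to D30 this ratio rose by 0.79 with overlapping MROs (exact permutation test, adjusted p = 0.173). That rise passed 0.05 without both MROs that stood apart (1.23, adjusted p = 0.0423 in the same test). The log2 ratio of Rbfox3 to Rbfox2 was 0.80 higher at D30 than at D20, within the spread (exact permutation test, p = 0.0801, adjusted 0.173). Of the 16 ratio tests 4 passed 0.05 after adjustment, and the other 2 were those of the Musashi pair.

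Msi1 (ENSMUSG00000054256, chr5:115429599-115455698, plus strand), the Musashi protein known from neural and retinal progenitors and Müller glia as well as photoreceptors, had a lowest, median and highest value of 167, 172 and 213 normalized CPM at D20, and of 162, 198 and 211 at D22. At D25 these were 154, 179.9 and 247, and at D30 91.8, 136 and 174. The median was lowest at D30, and the MROs of D30 overlapped every earlier timepoint. Msi1 fell by 0.44 ± 0.12 from D20 to D30 (1.36-fold, adjusted p = 0.00473), by 0.53 ± 0.12 from D22 to D30 (0.00111) and by 0.49 ± 0.12 from D25 to D30 (0.00987). The last call was lost in 20 of the 24 fits that left out an organoid and with DESeq2, its size factors, the replicate block or the compared timepoints alone, at an adjusted p of up to 0.0451. The call from D20 to D30 was lost without D20 replicate 1 (-0.38), D30 replicate 1 (-0.39) or D30 replicate 2 (-0.36), and with DESeq2 (-0.38), its size factors (-0.38) or the compared timepoints alone (-0.44). The call from D22 to D30 was kept in all 24.

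Msi2 (ENSMUSG00000069769, chr11:88339382-88718513, minus strand), its paralog, moved the other way. Its lowest, median and highest values were 257, 313 and 365 normalized CPM at D20, and 318, 342 and 358 at D22. They were 349, 389.8 and 415 at D25, and 437, 489 and 506 at D30. All MROs of D30 lay above all MROs of the earlier timepoints. Msi2 rose by 0.62 ± 0.08 from D20 to D30 (1.54-fold, adjusted p = 1.43e-07), by 0.48 ± 0.08 from D22 to D30 (1.26e-05) and by 0.32 ± 0.08 from D20 to D25 (0.00236). The last of these was lost without D20 replicate 1 (0.26) or D25 replicate 3 (0.29). The step from D25 to D30 gave 0.30 ± 0.08 (adjusted p = 0.0131) and passed with DESeq2 (0.35, 0.00154) or its size factors (0.35, 0.00410). It also passed in 4 of the 24 fits that left out an organoid. Without both MROs that stood apart it gave 0.29 (0.0298), and over all alternatives the adjusted p reached 0.0907.

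The log2 ratio of Msi2 to Msi1 was 0.79 ± 0.30 (SD) and 0.85 ± 0.21 at D20 and D22, then 1.08 ± 0.30 at D25 and 1.89 ± 0.37 at D30. The ratio of counts itself went from a geometric mean of 1.73 at D20 to 3.70 at D30. It was higher at D30 than at D25 by 0.81 and higher at D30 than at D20 by 1.10 on the log2 scale, with no overlap between MROs in either comparison (two-sided exact permutation test, n = 6 and 6, p = 0.00216, adjusted 0.00866). Both calls held in all 12 recomputations that left out 1 of the MROs compared, at 0.69 to 0.89 and at 0.99 to 1.18. These ratios are of counts and not of counts per kb.

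Elavl3 (ENSMUSG00000003410, chr9:22015005-22052023, minus strand), the neuronal RNA stabilizer, had a lowest, median and highest value of 85.9, 105 and 147 normalized CPM at D20, and of 77.2, 102 and 107 at D22. At D25 these were 102, 115 and 176, and at D30 56.3, 95.4 and 156. The timepoints overlapped, and the range was widest at D30. D30 against D20 gave 0.00066 ± 0.18 (adjusted p = 0.998) and D25 against D22 gave 0.33 ± 0.18 (0.249). The joint test gave an adjusted p of 0.450, so no change was detected at this spread between organoids.

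Members differed in how much the 6 MROs of a timepoint spread. The coefficient of variation of Msi2 was 4.33% to 13.4% over the timepoints, and that of Rbfox1 30.8% to 80.3%. The highest value of Rbfox1, at D25, was 49.2% without D25 replicate 1, and its value at D30 went from 45.1% to 24.6% without D30 replicate 6. At D25, leaving out replicate 1 took Rbfox2 from 18.2% to 5.98%, Elavl3 from 21.6% to 5.97%, Nova1 from 21.3% to 13.0% and Rbfox3 from 45.8% to 30.1%. Rbfox3 went from 24.6% at D20 to 67.8% at D30, Rbfox2 from 11.9% to 38.1% and Elavl3 from 21.4% to 36.2%, whereas Ptbp1 went from 16.1% to 6.21%.

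A pair of MROs stood apart in several members. D25 replicate 1 was above the other 5 MROs of D25 for 6 members, Ptbp2, Nova1, Rbfox1, Rbfox2, Rbfox3 and Elavl3, and below them for Msi1, Ptbp1 and Srrm4. Rbfox1 read 69.0 normalized CPM there and 9.83 to 32.9 in the others. D30 replicate 6 was below the other 5 MROs of D30 for Nova1, Rbfox1, Rbfox2, Rbfox3 and Elavl3 and above them for Msi1 and Srrm4. It was not flagged by the outlier test given below. For every gene some MRO is highest and another lowest, and the share of all genes for which these MROs were so was not computed. With both MROs left out, a fit added after the data had been seen, 7 members were called from D20 to D30, Rbfox3 being added, Rbfox1 from D22 to D25 stood at 1.27 (adjusted p = 0.00431), and its call from D20 to D25 was lost (0.94, 0.0167), as was that of Ptbp1 (-0.39, 0.0272).

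Markers of cortical neurons, some of which retinal cells also express, stood apart in the same MROs. The summed normalized CPM of 6 cortex markers (Neurod6, Neurod2, Tbr1, Bcl11b, Fezf2 and Emx1) was 306 in D25 replicate 1 and 13.8 to 168 in the other MROs of D25. In D30 replicate 6 it was 9.37, and in the others of D30 39.0 to 238. It was 21.6 to 219 at the first timepoint and 12.6 to 25.6 at the second, with Emx1 at 0 counts in 4 MROs and Tbr1 in 1. Neurod6, which amacrine cells also express, made up much of that sum. Without it the other 5 summed to 109 in D25 replicate 1 (the others 12.8 to 53.9) and to 8.59 in D30 replicate 6 (the others 25.7 to 66.8). Of 7 cortex markers with Slc17a7, which photoreceptors also express, 3 were called higher at D25 than at D22, where Rbfox1 was called, and the other 4 were not called. At D30 against D22, where Rbfox1 and Nova1 were called, 5 were higher and the other 2 not called. At D30 against D20, where Rbfox1 and Nova1 were also called, Slc17a7 alone was higher, Fezf2 was lower and the other 5 were not called. D25 replicate 1 also had more oligodendrocyte marker RNA (48.8, the others 33.4 to 37.8). It had less of pigment epithelium (39.6, the others 171 to 604). D30 replicate 6 had less Müller glia marker RNA (1167, the others 1894 to 4150). Its summed ganglion cell markers were also lower (12.6, the others 20.0 to 41.2). Thy1 made up much of the ganglion sum at D30. Thy1 was higher at D30 than at D20, whereas the other ganglion markers tested were lower. The ganglion sum without Thy1 was not computed, so a lower level is not shown for the other ganglion markers. How far the cells that express any of these markers enter the values of Rbfox1, Rbfox3, Nova1 and Elavl3 was not tested.

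Other cell type markers shifted between timepoints too. Of 9 progenitor markers 8 were lower at D30 than at D20. The summed level of the 9 was 967 to 1528 normalized CPM at D20 and 343 to 574 at D30. Of 8 rod markers, 7 had counts in every MRO and Gnat1 was at 0 counts in 1 MRO. The study uses Crx and Rcvrn, both in this list, as markers of photoreceptors in general. At D30 against D20, 7 rod markers were higher. The summed level of the 8 was 1027 to 1996 normalized CPM at D20 and 6331 to 12641 at D30. Müller markers were higher for 5 and lower for 1 of 7, bipolar markers higher for 6 of 7, ganglion cell markers higher for 1 and lower for 5 of the 6 tested, and amacrine markers higher for 2 and lower for 1 of 8. The summed amacrine level was 118 to 222 normalized CPM at D20 and 111 to 320.0 at D30. Mesenchyme markers were higher for 4 of 6, oligodendrocyte markers higher for 3 and lower for 1 of 5, and pigment epithelium markers higher for 2 of 4, with Rpe65 at 0 counts in 18 MROs. How far these shifts enter the regulators' values was not tested.

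Among 8 paralogs of the members, Srrm1, Srrm2 and Ptbp3 were lower at D30 than at D20, and none was higher. Srrm1, a general splicing coactivator, fell by 0.82 ± 0.09 on the log2 scale (adjusted p = 5.60e-09), from 285 ± 23.5 to 162 ± 13.5 normalized CPM (mean ± SD). Ptbp3, the third polypyrimidine tract-binding protein, fell by 0.60 ± 0.15 (0.00218), as did both of its relatives. Srrm2, a scaffold of nuclear speckles, fell by 0.41 ± 0.09 (0.000539). Srrm3, which acts on microexons as Srrm4 does, gave 0.35 ± 0.14 (0.0384) and was higher at D25 than at D20 by 0.56 ± 0.14 (0.00233). Elavl2 gave 0.95 ± 0.31 (0.0154) and was higher at D30 than at D22 by 1.52 ± 0.32 (0.000383). Nova2 gave 0.69 ± 0.31 (0.0855), Elavl4 -0.01 ± 0.30 (0.983), and Elavl1, the ubiquitous member of its family, -0.08 ± 0.10 (0.573).

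Of 24 other splicing regulators 23 were tested, of which 4 were higher and 8 lower at D30 than at D20, with a median log2 fold change of -0.31. Of 19 other RNA-binding proteins and the transcription factor Rest, 4 were higher and 8 lower, with a median of -0.10, beside 0.10 for all annotated genes. The largest rises among those called were those of Lin28a, a regulator of let-7 microRNA processing, by 3.28 ± 0.40 (adjusted p = 8.83e-08), of Mbnl1, a splicing factor of mature tissues, by 2.84 ± 0.14 (1.42e-15), and of Cpeb3, a translational regulator, by 1.41 ± 0.19 (4.91e-07). Lin28a was low throughout, at 0.813 ± 0.260 normalized CPM at D20 and 7.95 ± 4.39 at D30. Mbnl1 went from 24.9 ± 3.31 normalized CPM at D20 to 33.1 ± 7.60, 81.6 ± 11.2 and 179 ± 27.2 at the later timepoints.

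The largest falls among those called were those of a pair of mRNA-binding proteins of embryonic tissues and of the splicing factor Rbm24. Igf2bp1 fell by 3.33 ± 0.19 (adjusted p = 9.83e-15), Igf2bp3 fell by 2.33 ± 0.15 (1.37e-13) and Rbm24 fell by 2.70 ± 0.14 (2.42e-15). Igf2bp1 went from 81.4 ± 12.7 normalized CPM at D20 to 54.9 ± 8.72, 27.1 ± 4.22 and 8.05 ± 3.07. Rest, which represses neuronal genes including splicing regulators in cells that are not neurons, fell by 0.56 ± 0.13 (0.000871), from 67.2 ± 12.5 normalized CPM at D20 to 45.7 ± 6.70 at D30. These changes stand beside the members as context, and no link between them was tested.

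**Figure D4:**
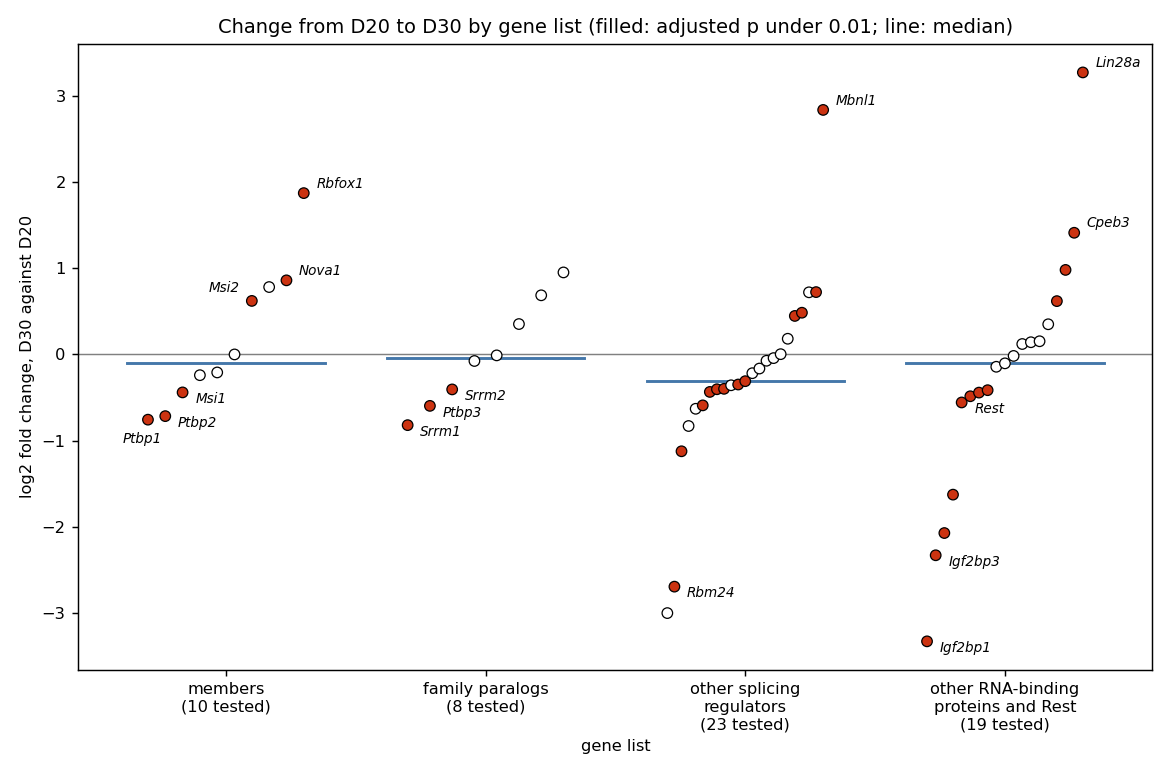
Log2 fold change in D30 against D20 (y axis) of the 10 members, 8 paralogs, 23 other splicing regulators and 19 other RNA-binding proteins with Rest (x axis), 1 point a gene; filled points passed an adjusted p of 0.01 and the line is the list's median. The members span -0.76 to 1.88, and Mbnl1, Lin28a and Igf2bp1 are among the genes that lie beyond that range.

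For each member called in the joint test, the annotated genes with the most similar course were sought by the smallest root mean square (RMS) difference of centred log2 CPM over the 24 MROs, among 10829 genes averaging 100 or more normalized counts. Ptbp2 was closest to Klhl24 (RMS 0.114) and Zfp292 (0.124), beside a median of 0.455 over all candidates. Msi2 was closest to Ghitm (0.112) and Zbtb6 (0.121), and Srrm4 to Ankrd33b (0.135) and Acsl1 (0.145). Msi1 was closest to Map7 (0.145) and Dgkd (0.155), and Ptbp1 to Lsg1 (0.180) and Wdr3 (0.186). Nova1 was closest to Nrxn3 (0.209), a presynaptic adhesion molecule, and Usp29 (0.2503). Rbfox1 had the largest RMS values, to Phactr3 (0.293) and Tmod2 (0.327), beside a median of 1.09 over all candidates. It also varied most, with an SD of log2 CPM over the MROs of 1.13, against 0.265 to 0.537 for the others. The RMS grows with that spread, so it does not rank the members by closeness of course.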

How the data were processed

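RNA from 24 individual MROs, 6 at each timepoint, was sequenced by the authors as strand-specific, ribosome-depleted single-end libraries. Per the labels and the study's methods, the authors trimmed reads with cutadapt (1.5), aligned them with HISAT2 to GRCm38/mm10, assembled transcripts with StringTie (1.3.3) and counted reads per feature with HTSeq (0.6.1). The deposited values are these raw counts, whole numbers without normalization. The strand setting of the counting is not given in the sources used here. Reads counted per MRO ranged from 13634846 to 19477108, so that 3 counts correspond to 0.154 to 0.220 CPM (counting error only), and the common biological coefficient of variation was 0.385. The 5 summary lines of each table were left out. The 60 pairs of MROs within a timepoint all differed beyond sampling noise (smallest chi-square over its degrees of freedom 5.14), so none was a duplicate library.

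Features averaging 10 or more normalized counts over the MROs were retained (46949, of which 16253 annotated genes) and tested with edgeR (4.0.16) in R (4.3.3): TMM normalization, quasi-likelihood test, 1 fit of all 24 MROs, Benjamini-Hochberg adjustment over all features, threshold 0.01. Standard errors were derived from the F statistic. Family ratios were log2 ratios of counts plus 0.5 within an MRO, tested by two-sided exact permutation with adjustment over 16 tests and a threshold of 0.05. Gene coordinates and exon lengths (the union of annotated exons) came from GENCODE vM21, which may differ from the authors' annotation. The named genes were all members, their paralogs, Rest, and the 3 largest rises and falls from D20 to D30 past 0.01 in the other lists, plus the 2 genes of nearest course per member (log2 CPM with a pseudocount of 0.5). The members and lists were chosen with earlier results of these data known. On simulated counts with a dispersion of 0.15 and changes at D25, edgeR recovered 90 of 94 4-fold and 10 of 106 2-fold changes in D25 against D22, with 5 false calls among 46949 features. Every simulated feature had that dispersion. The members' coefficients of variation differed, from 4.33% to 13.4% for Msi2 and 30.8% to 80.3% for Rbfox1, so this recovery does not carry over to each member. Replicate numbers did not pair MROs: deviations of same-numbered MROs correlated at -0.21 to 0.37 (mean -0.0058). Alternatives were DESeq2 (1.42.0) and its size factors, other filters, annotated genes only, the replicate block, the compared timepoints alone and the omission of MROs. Some cortex markers are not reported here, and sums and counts of that list leave them out.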

Additional observations from a re-analysis of the deposited data

Results flagged for a closer look

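Single organoids stood apart from the other 5 of their timepoint in 6 of 56 groups of 6 (10 members and 4 ratios at 4 timepoints), where the gap to the nearest value was too large a part of the range by Dixon's test. Chance flags about 1 in 20 groups, or 2.8 of 56. D25 replicate 1 was the highest for Rbfox2 (179 normalized CPM, the next 132) and for Elavl3 (176, the next 120.5). D20 replicate 1 was the highest for Msi1 (213, the next 183), D20 replicate 4 the highest for Nova1 (24.01, the next 12.3) and D22 replicate 1 the lowest for Elavl3 (77.2, the next 98.9). The log2 ratio of Msi2 to Msi1 was lowest in D25 replicate 5, at 0.50, where the next was 1.05.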

How the results depend on the processing

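The calls of Msi2, Ptbp1, Ptbp2 and Rbfox1 from D20 to D30, of Srrm4 from D20 to D25 and from D25 to D30, and of Msi1 from D22 to D30 kept their direction and their side of the threshold under every alternative. The number of members called moved by more than 1.5 times in the following cases, and the cause was not tested unless the setting itself used fewer MROs. D22 against D20 called 0 with DESeq2's size factors and 0 with edgeR's filterByExpr. D25 against D22 called 2 with annotated genes only, with the compared timepoints alone or with both MROs that stood apart left out. D30 against D25 called 1 with the compared timepoints alone, and D25 against D20 called 3 without both MROs. With the replicate number as a block, the counts were 0 for D25 against D22, 1 for D30 against D25 and 3 for D25 against D20. Since the numbers do not pair the MROs, calls lost under the block do not mark a weaker effect, and Elavl3 in D30 against D20 stood at -0.0353 under it. The ratio of Rbfox3 to Rbfox2 in D30 against D20 passed without both MROs (1.02) and its D30 against D25 difference turned to 0.29.

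None of the values that changed sign was called. With annotated genes only, Srrm4 in D25 against D22 was -0.00944, Elavl3 was -0.0229 in D30 against D22 and -0.11 in D30 against D20, the change between the first and second steps of Msi2 was -0.0961, and that between the later steps (D30 against D25 less D25 against D22) of Nova1 was 0.0191 (0.00933 with DESeq2's size factors). Ptbp1 in D25 against D22 was 0.00236 with DESeq2 or its size factors, 0.00189 with no filter, 0.0104 with filterByExpr and 0.0236 without both MROs. Nova1 in D22 against D20 was -0.00176 with filterByExpr. Rbfox3 in D30 against D25 was 0.0103 with DESeq2, 0.00719 with its size factors and 0.42 without both MROs. Without both MROs, Msi1 in D25 against D22 was 0.0114, Rbfox2 was -0.0114 in D25 against D22, 0.0554 in D30 against D25 and 0.0441 in D30 against D22, and Elavl3 in D30 against D25 was 0.0667.

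Leaving out 1 MRO at a time gave 0 to 1 members for D22 against D20, 0 to 2 for D25 against D22, 1 to 2 for D30 against D25, 2 to 5 for D25 against D20, 5 to 7 for D30 against D22, 4 to 7 for D30 against D20 and 5 to 8 jointly. Log2 fold changes that crossed 0 were those of D25 against D22 for Msi1 (-0.14 to 0.0114), Ptbp1 (-0.0991 to 0.0282) and Rbfox2 (-0.0114 to 0.15), of D22 against D20 for Nova1 (-0.15 to 0.28) and Rbfox3 (-0.15 to 0.0384), of Rbfox2 in D30 against D22 (-0.27 to 0.0441), Rbfox3 in D30 against D25 (-0.36 to 0.21) and Elavl3 in D30 against D20 (-0.13 to 0.13). The log2 ratio differences that did so were Msi2 to Msi1 (-0.0437 to 0.13) and Rbfox1 to Rbfox2 (-0.30 to 0.0418) in D22 against D20, Ptbp2 to Ptbp1 in D30 against D20 (-0.0697 to 0.0968) and Rbfox3 to Rbfox2 in D30 against D25 (-0.28 to 0.19). Rbfox3 to Rbfox2 ranged from 0.54 to 1.02 in D30 against D20. From D20 to D30, Msi1 (SE 0.12) was called at 1.36-fold and Rbfox3 (SE 0.33) was not at 1.72-fold.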
